A study of Mus musculus with 6 samples.

Results

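Sox9, the transcription factor gene at the centre of testis formation, was followed together with the other SOX genes of the early gonad in somatic cells from the gonads of XY mouse embryos at E11.5. The genes were picked by name, with earlier results of these data known: Sox9 and Sox8 of the SOXE subgroup, Sox13, Sox5 and Sox6 of the SOXD subgroup, and Sox4, Sox11 and Sox12 of the SOXC subgroup. Of these 8 genes, 7 have a row among the 11736 genes of the tables used here, and Sox8 was not analysed here. The comparison was between 3 libraries from knockout (Cdyl-KO) embryos and 3 from heterozygous (Cdyl-Het) embryos. Cdyl encodes a chromodomain protein that takes part in transcriptional repression, and the comparison asked how its deficiency altered expression in these cells. All 6 libraries share the C57BL/6 strain, male sex and the Nr5a1-hCD271 genotype, in which the hCD271 surface marker allowed the cells to be collected with magnetic beads. Both groups thus carry a Cdyl deficiency, and the sources used here do not give the form of the allele. Whether the libraries came from separate embryos or pools is not given either, so the p-values measure the spread between these libraries, which may be technical.

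SOX proteins bind DNA through an HMG box, a domain first recognised in SRY, and members of a subgroup have similar boxes and overlapping roles. In the XY gonad, SRY acts with NR5A1 to switch on Sox9, and SOX9 then drives the supporting cells to become Sertoli cells and sustains its own expression through FGF9 and prostaglandin D2. SOX8 can stand in for part of the work of SOX9. SOX5 and SOX6 lack an activation domain and assist SOX9 at cartilage genes, and SOX4, SOX11 and SOX12 are activators found in many embryonic progenitors.

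The deposited values were read as RPKM, a read count per length of gene and per 1 M reads. They are given as scaled RPKM, after a factor for each library was applied. Changes are Cdyl-KO minus Cdyl-Het in log2(scaled RPKM + 1), a scale on which genes of low level show less than their full change. A gene was called changed at a limma adjusted p under 0.05 over all 11736 genes. By that rule 7.50% of genes changed, 4.67% higher and 2.83% lower in Cdyl-KO. At an unadjusted limma p under 0.05, which is given below beside some lists, 25.4% of genes passed, 14.2% higher and 11.2% lower. The steps between low values stood for 34.6 to 45.2 M reads per library. Each gene in the tables had a Cdyl-KO mean of at least 1 deposited RPKM, while 100 genes had a Cdyl-Het mean below 1, so a gene that fell below 1 in Cdyl-KO cannot be seen here. The 7 SOX genes had group means of 3.57 scaled RPKM or more in both groups and did not owe their place in the tables to a single group. Cdyl itself was at 6.77, 6.93 and 7.07 scaled RPKM in the Cdyl-KO libraries, against 7.77, 8.06 and 8.22 in the Cdyl-Het libraries (log2 change -0.19, limma adjusted p = 0.0702), and in values left unscaled it was lower (-0.32, adjusted p = 0.0145; 0.0145 to 0.193 over all alternatives). The level of Cdyl RNA therefore does not check the knockout label. Of 5 markers of gonadal somatic cells, 2 were higher in Cdyl-KO, Lhx9 and Emx2, and 0 were lower, against 4.67% and 2.83% of all genes. Nr5a1, Wt1 and Gata4 did not pass the threshold. All 5 also stand on the list of genes upstream of Sox9 below, where Lhx9 and Emx2 are counted again. Nr5a1, the defining marker of these cells, was at 77.7 ± 7.31 scaled RPKM in Cdyl-KO and 85.8 ± 7.76 in Cdyl-Het (SD, n = 3 each).

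Of the 7 SOX genes, 3 were lower in Cdyl-KO (Sox9, Sox13 and Sox6), against 2.83% of all genes. Sox11 alone was higher, against 4.67% of all genes, and 3 did not pass the threshold. The 3 lower genes belong to the SOXE and SOXD subgroups, and none of the SOXC genes was lower (0 of 3 at a limma adjusted p under 0.05). With 2.83% of all genes lower, 0 of 3 does not set the SOXC genes apart. For 6 of the 7 genes the groups did not overlap, as was the case for 31.6% of all genes. Of these, 4 had each Cdyl-KO value below each Cdyl-Het value, against 14.5% of all genes, and 2 had each above, against 17.1%. In values left unscaled, the groups overlapped for Sox12 as well as for Sox4. The median log2 change was -0.21 over the 7 genes and -0.00059 over all genes. No test was made of the set.

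**Figure D1:**
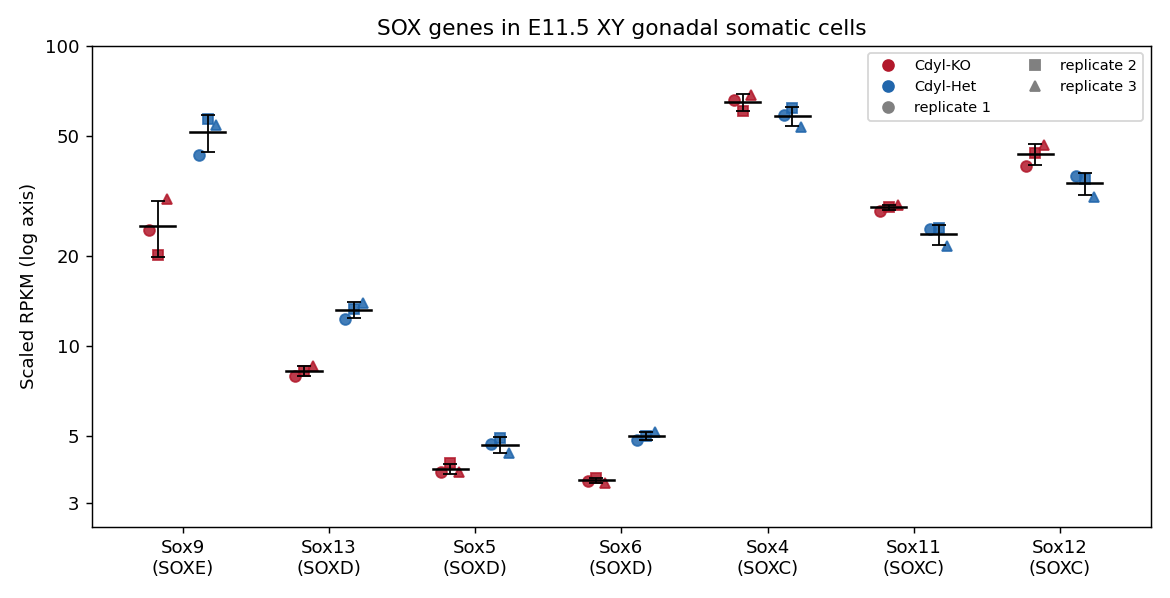
Level of each SOX gene in scaled RPKM on a log axis, by library. Points are libraries (red, Cdyl-KO; blue, Cdyl-Het; the shape gives the replicate number), horizontal lines are means and bars are SD (n = 3); the Cdyl-KO points of Sox9, Sox13, Sox5 and Sox6 lie below all Cdyl-Het points, those of Sox11 and Sox12 lie above, and those of Sox4 overlap.

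Sox9 showed the largest change of the 7 genes. This gene of 3 exons (chromosome 11, 112782224 to 112787760, plus strand, mm10) had 24.4, 20.2 and 30.8 scaled RPKM in the Cdyl-KO libraries, against 43.3, 57.1 and 54.6 scaled RPKM in Cdyl-Het. The highest Cdyl-KO library, replicate 3, stayed below the lowest Cdyl-Het library, replicate 1. The mean was 25.1 ± 5.36 scaled RPKM in Cdyl-KO and 51.7 ± 7.36 in Cdyl-Het (SD, n = 3 each), a ratio of 0.486. The log2 change was -1.02 (SE 0.16, 95% interval -1.40 to -0.64, limma adjusted p = 0.0153), which ranked 63 from the lowest among 11736 genes. A log2 change of -1 or below was seen in 0.571% of genes. Genes with a Cdyl-KO mean below 1 deposited RPKM are not in the tables. This rank and this share may therefore leave out strongly lowered genes. The spread of Sox9 within a group was wide, and its adjusted p was 0.0531 when Cdyl-KO replicate 1 was left out, 0.0609 when Cdyl-Het replicate 2 was and 0.0707 when Cdyl-Het replicate 3 was (limma; 0.00936 to 0.0707 over all alternatives), with log2 changes of -1.01, -0.95 and -0.98. In bulk RNA of this kind, fewer cells with Sox9 and less Sox9 RNA per cell cannot be told apart.

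Sry, the Y-linked SOX gene that acts upstream of Sox9, moved in the opposite direction in the same libraries. It had 36.5, 32.5 and 37.2 scaled RPKM in Cdyl-KO, against 28.2, 25.2 and 26.7 in Cdyl-Het, and every Cdyl-KO value was above every Cdyl-Het value (log2 change 0.40, SE 0.07, limma adjusted p = 0.0222). Per length, Sry was thus above Sox9 in each Cdyl-KO library and below it in each Cdyl-Het library. The ratio of Sry to Sox9 was 1.21 to 1.61 in Cdyl-KO and 0.440 to 0.651 in Cdyl-Het, with means of 1.44 ± 0.209 in Cdyl-KO and 0.527 ± 0.111 in Cdyl-Het (SD, n = 3 each). The call of Sry depended on 4 single libraries. Its limma adjusted p was 0.0749 in fits lacking Cdyl-KO replicate 1, 0.0646 in those lacking Cdyl-KO replicate 3, 0.0717 if Cdyl-Het replicate 2 was dropped and 0.0787 if Cdyl-Het replicate 3 was, within a range of 0.0163 to 0.0787 over all alternatives.

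Among the SOXD genes, Sox13 and Sox6 were lower in Cdyl-KO and Sox5 lay in the same direction without passing the threshold. Sox13, which encodes a SOX protein known as an antagonist of TCF factors and a regulator of γδ T cells, lies on chromosome 1 (133382303 to 133424377, minus strand, 14 exon blocks). It had 7.96, 8.24 and 8.55 scaled RPKM in the Cdyl-KO libraries, against 12.3, 13.3 and 13.9 in the Cdyl-Het libraries. The Cdyl-KO libraries lay close together and far below the Cdyl-Het ones. The means were 8.25 ± 0.294 in Cdyl-KO and 13.2 ± 0.806 in Cdyl-Het (SD, n = 3 each), the ratio was 0.626 and the log2 change was -0.62 (SE 0.06, 95% interval -0.76 to -0.47, limma adjusted p = 0.00383). Sox13 had the smallest p of the 7 genes, rank 50 among all genes, and was called under each of the 13 alternatives (limma adjusted p = 0.0023 to 0.0243).

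Sox6, which encodes a partner of SOX9 in cartilage and a regulator of muscle and red blood cells, spans 567.9 kb of chromosome 7 (115470872 to 116038796, minus strand, 25 exon blocks). It had 3.56, 3.64 and 3.50 scaled RPKM in Cdyl-KO, against 4.87, 5.01 and 5.17 in Cdyl-Het. The groups were well separated relative to their spread. The means were 3.57 ± 0.0706 in Cdyl-KO and 5.02 ± 0.148 in Cdyl-Het (SD, n = 3 each), with a ratio of 0.711 and a log2 change of -0.40 (SE 0.06, 95% interval -0.53 to -0.27, limma adjusted p = 0.0104). Sox6 was called in each of the 12 alternatives that hold it, with a limma adjusted p of 0.0064 to 0.0485.

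Sox5, the close relative of Sox6 with the same known role in cartilage, spans 953.6 kb of chromosome 6 (143828425 to 144781977, minus strand). It had 3.80, 4.07 and 3.81 scaled RPKM in Cdyl-KO, against 4.70, 4.94 and 4.40 in Cdyl-Het. The groups did not overlap, but the gap between Cdyl-KO replicate 2 and Cdyl-Het replicate 3 was small. The means were 3.89 ± 0.153 in Cdyl-KO and 4.68 ± 0.274 in Cdyl-Het (SD, n = 3 each), and the log2 change was -0.21 (SE 0.06, 95% interval -0.36 to -0.07, limma adjusted p = 0.0875). In values left unscaled, where all genes were shifted by a median of -0.12, the change was -0.33 with a limma adjusted p of 0.0222 (0.0222 to 0.21 over all alternatives). Exons of Sox5 overlap those of the antisense gene Sox5os1. The strand setting of the counting is not given, so reads of the 2 genes cannot be told apart.

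The promoters of Sox13 and Sox6 are shown because both genes were lower in Cdyl-KO, beside those of Sox11, which was higher, and Sox4, which did not pass the threshold. RefSeq sequences of the GRCm38.p6 build were used, from 250 bases before to 50 bases after the transcript start, all on the minus strand and 5′ to 3′. The positions are chr1:133424163-133424462 for Sox13, chr7:116038695-116038994 for Sox6 (the most upstream of its 6 entries), chr12:27342669-27342968 for Sox11 and chr13:28953650-28953949 for Sox4. Capitals mark 4 motifs on either strand: the GC box, GGGCGG; the box named for its letters, CCAAT; and sites bound by SOX proteins, spelled AACAAT or, in a longer form, AACAAAG.
Sox13: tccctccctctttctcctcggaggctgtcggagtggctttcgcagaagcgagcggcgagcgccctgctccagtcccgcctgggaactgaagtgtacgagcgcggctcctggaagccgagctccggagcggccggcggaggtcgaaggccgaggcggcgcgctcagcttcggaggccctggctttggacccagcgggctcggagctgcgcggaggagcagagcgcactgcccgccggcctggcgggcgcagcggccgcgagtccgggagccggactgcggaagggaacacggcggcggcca
Sox6: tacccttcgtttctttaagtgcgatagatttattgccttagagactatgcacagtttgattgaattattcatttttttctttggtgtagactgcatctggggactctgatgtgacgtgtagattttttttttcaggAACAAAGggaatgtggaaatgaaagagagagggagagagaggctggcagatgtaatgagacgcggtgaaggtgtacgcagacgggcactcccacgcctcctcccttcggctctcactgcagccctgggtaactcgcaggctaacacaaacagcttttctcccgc
Sox11: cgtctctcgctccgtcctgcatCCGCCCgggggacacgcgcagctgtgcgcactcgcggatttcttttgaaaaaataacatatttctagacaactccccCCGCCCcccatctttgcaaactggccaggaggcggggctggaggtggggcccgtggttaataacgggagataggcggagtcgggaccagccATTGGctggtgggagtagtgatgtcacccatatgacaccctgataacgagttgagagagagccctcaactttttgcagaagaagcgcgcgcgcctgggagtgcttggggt
Sox4: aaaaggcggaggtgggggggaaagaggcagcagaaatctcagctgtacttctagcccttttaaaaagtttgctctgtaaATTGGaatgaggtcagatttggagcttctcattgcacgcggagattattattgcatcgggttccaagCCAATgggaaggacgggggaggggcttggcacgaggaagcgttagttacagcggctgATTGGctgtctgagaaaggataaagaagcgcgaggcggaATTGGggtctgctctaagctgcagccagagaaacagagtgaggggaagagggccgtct

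The 4 promoters differ in composition more than they share. The Sox13 promoter holds 40 CpG dinucleotides, more than 96.1% of the 32851 promoters of this length, and no searched motif. The Sox6 window shown holds 11 CpG dinucleotides and 1 AACAAAG, a motif found in 5.85% of all promoters. The other Sox6 entries, not shown, hold 2 to 13 CpG dinucleotides and differ in their motifs. The Sox11 promoter holds 21 CpG dinucleotides, 2 GC boxes and 1 CCAAT box, and that of Sox4 holds 12 CpG dinucleotides and 4 CCAAT boxes. A GC box occurs in 35.7% of all promoters, a CCAAT box in 37.4% and AACAAT, absent from these 4 windows, in 10.7%. A match describes letters in the window and does not show that a factor binds there.

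Of the SOXC genes, Sox11 was higher in Cdyl-KO, and Sox12 and Sox4 had positive log2 changes that did not pass the threshold. Sox11, a single-exon gene whose protein promotes survival and differentiation of neural and mesenchymal progenitors (chromosome 12, 27334264 to 27342574, minus strand), had 28.3, 29.1 and 29.5 scaled RPKM in Cdyl-KO, against 24.5, 24.7 and 21.5 in Cdyl-Het. All Cdyl-KO libraries were above all Cdyl-Het libraries, of which replicate 3 was lowest. The means were 29.0 ± 0.622 in Cdyl-KO and 23.5 ± 1.79 in Cdyl-Het (SD, n = 3 each), and the log2 change was 0.29 (SE 0.06, 95% interval 0.14 to 0.44, limma adjusted p = 0.0420). This call was not stable. It was lost when any 1 of the 6 libraries was left out (limma adjusted p = 0.0670 to 0.110), without a trend in the spread (0.0601), and in values left unscaled (0.119, log2 change 0.15); over all alternatives the adjusted p was 0.0340 to 0.119.

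Sox12, also a single-exon gene, whose protein is a weaker activator than SOX11 (chromosome 2, 152393611 to 152398063, minus strand), had 39.9, 44.1 and 46.7 scaled RPKM in Cdyl-KO, against 36.98, 36.1 and 31.4 in Cdyl-Het. The groups did not overlap, with Cdyl-Het replicate 3 again the lowest of its group. The means were 43.6 ± 3.47 in Cdyl-KO and 34.8 ± 3.01 in Cdyl-Het (SD, n = 3 each), and the log2 change of 0.32 did not pass (SE 0.08, 95% interval 0.12 to 0.51, limma adjusted p = 0.0688). In values left unscaled the groups of Sox12 overlapped, with 38.1 in Cdyl-KO replicate 1 and 38.7 in Cdyl-Het replicate 1. The unscaled log2 change was 0.17 (limma adjusted p = 0.150). Sox4, which encodes a SOXC factor known to shape the early mouse gonad (chromosome 13, 28948919 to 28953713, minus strand), had 65.97, 60.5 and 68.7 scaled RPKM in Cdyl-KO, against 58.9, 62.1 and 53.8 in Cdyl-Het. Here the groups overlapped, since Cdyl-Het replicate 2 was above Cdyl-KO replicate 2. The means were 65.1 ± 4.18 in Cdyl-KO and 58.2 ± 4.18 in Cdyl-Het (SD, n = 3 each), and the log2 change was 0.16 (SE 0.07, 95% interval -0.02 to 0.33, limma adjusted p = 0.236). The single exon of Sox4 overlaps an exon of Gm26735, with which reads may be shared.

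**Figure D2:**
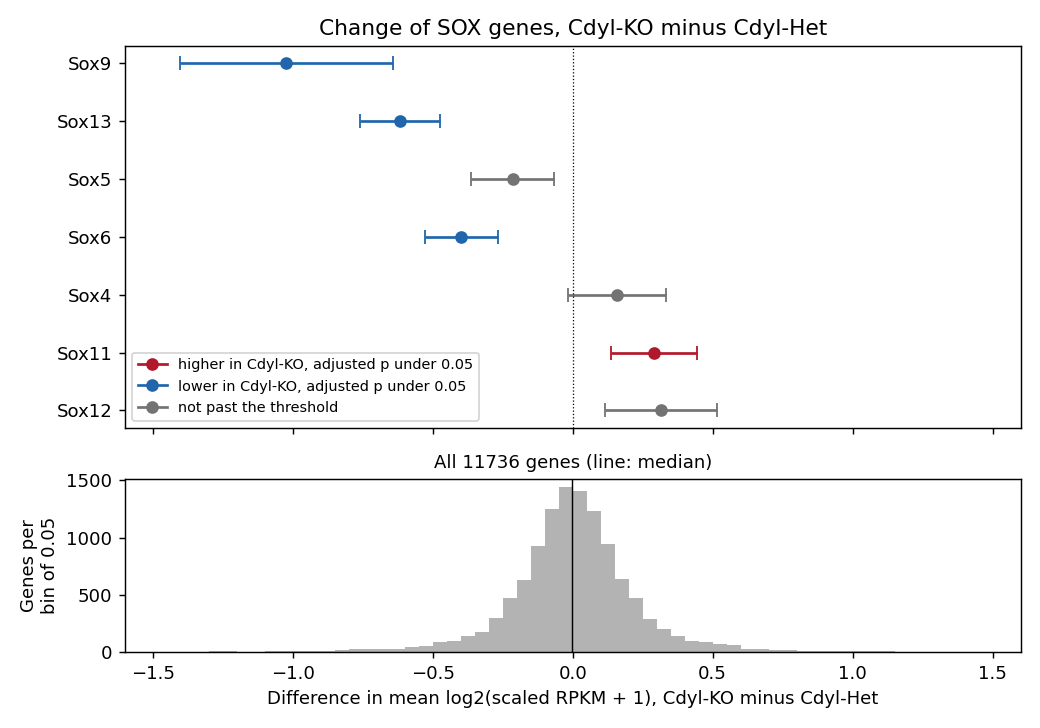
Upper panel, difference between the group means of log2(scaled RPKM + 1), Cdyl-KO minus Cdyl-Het, for each SOX gene, with its 95% interval from limma; blue and red mark genes past the threshold as lower and higher. Lower panel, the same difference for all 11736 genes, with their median as a line; Sox9 at -1.02 and Sox13 at -0.62 lie in the left tail, and genes beyond the axis limits are not drawn.

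The order of the SOX genes by level differed between the groups in the place of Sox9 and in that of Sox5 and Sox6. In Cdyl-KO the order was Sox4, Sox12, Sox11, Sox9, Sox13, Sox5 and Sox6, and only Sox11 and Sox9 had ranges that overlapped among neighbours. In Cdyl-Het the order was Sox4, Sox9, Sox12, Sox11, Sox13, Sox6 and Sox5, where the ranges of Sox4 and Sox9 overlapped, as did those of Sox6 and Sox5. Sox9 was thus at rank 4 of the 7 genes in Cdyl-KO and at rank 2 in Cdyl-Het.

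The summed level of the 7 genes was 178.4 ± 11.6 scaled RPKM in Cdyl-KO and 191.2 ± 10.5 in Cdyl-Het (SD, n = 3 each), and the ranges of the groups overlapped. Its make-up differed. Sox9 made up 14.0% ± 2.10 of the sum in Cdyl-KO and 27.0% ± 3.25 in Cdyl-Het. The 3 SOXC genes made up 77.2% ± 1.55 in Cdyl-KO and 61.0% ± 3.60 in Cdyl-Het, and the 3 SOXD genes made up 8.83% ± 0.557 in Cdyl-KO and 11.99% ± 0.648 in Cdyl-Het. None of these 3 shares had overlapping group ranges. In absolute terms the SOXC sum was 133.8 to 145.0 scaled RPKM in Cdyl-KO against 106.6 to 122.9 in Cdyl-Het, and the SOXD sum was 15.3 to 15.95 in Cdyl-KO against 21.9 to 23.5 in Cdyl-Het. Such sums, unlike the shares, depend on the library factors by which values were divided. These factors were 0.928 to 0.969 in Cdyl-KO and 1.046 to 1.062 in Cdyl-Het. In values left unscaled, the SOXC ranges overlapped, while those of the SOXD sum and of the sum of all 7 genes did not.

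**Figure D3:**
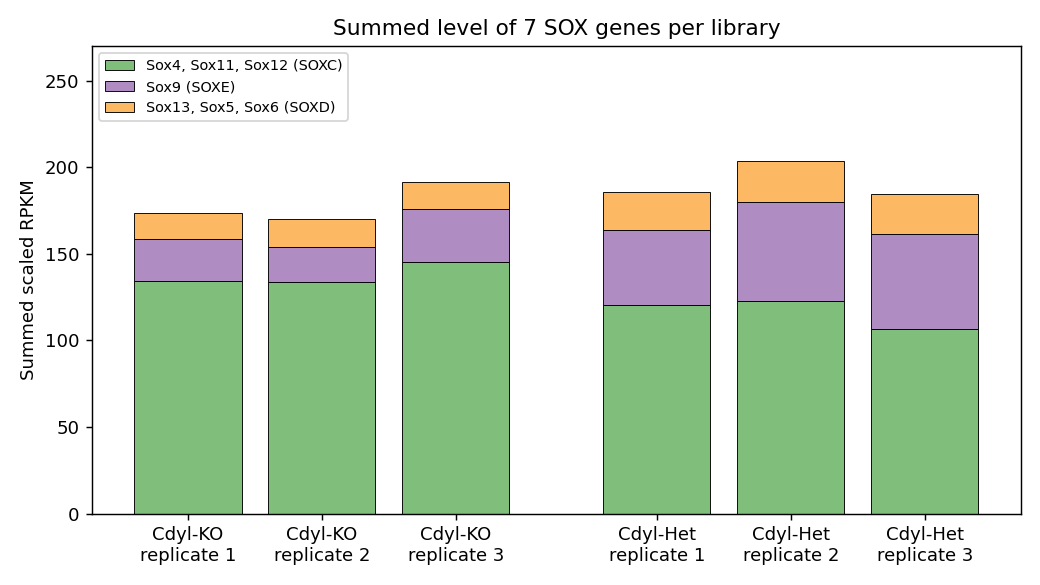
Summed scaled RPKM of the 7 SOX genes in each library, stacked by subgroup, on an axis that starts at 0. The Sox9 segment is 20.2 to 30.8 in the Cdyl-KO libraries and 43.3 to 57.1 in the Cdyl-Het libraries, while the SOXC segment is larger in each Cdyl-KO library than in any Cdyl-Het library. That separation of the SOXC segment rests on the scaling, since the SOXC ranges overlapped in unscaled values.

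Whether the SOX genes changed by different amounts was examined with ratios within a library, which barely depend on scaling. Of 5 ratios, 3 were chosen after their values were seen (Sox9 to Sox13, Sox9 to Sox4 and Sox13 to Sox11). With 3 libraries against 3, the exact two-sided permutation test cannot give a p below 0.10, so none of these differences could pass. The log2 ratio of Sox9 to Sox4 was -1.36 ± 0.207 in Cdyl-KO and -0.18 ± 0.234 in Cdyl-Het, with no overlap (exact p = 0.10, adjusted p = 0.125). That of Sox13 to Sox11 was -1.70 ± 0.0183 in Cdyl-KO and -0.79 ± 0.178 in Cdyl-Het, again with no overlap (exact p = 0.10, adjusted p = 0.125). The log2 ratio of Sox9 to Sox13 was 1.48 ± 0.271 in Cdyl-KO and 1.89 ± 0.144 in Cdyl-Het, and these groups overlapped (exact p = 0.20, adjusted p = 0.20). With a pseudocount of 5, and without scaling, the exact p of this ratio was 0.10, so whether these groups overlap depends on the setting. Among pairs of the same subgroup, the log2 ratio of Sox5 to Sox6 differed by 0.18 and that of Sox4 to Sox11 by -0.13 (exact p = 0.10 and adjusted p = 0.125 for both; n = 3 libraries per group throughout). Sox13 made up 52.5% ± 1.23 of the SOXD sum in Cdyl-KO and 57.6% ± 1.52 in Cdyl-Het (SD, n = 3 each), with no overlap.

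Of the 12 other SOX genes sought, Sry, described above, and Sox18 were measured here. Sox18, known for its role in endothelial and lymphatic cells, was at 1.01, 1.87 and 1.56 scaled RPKM in Cdyl-KO, against 2.53, 2.36 and 1.97 in Cdyl-Het (log2 change -0.42, SE 0.15, limma adjusted p = 0.133). Among the 7 other sequence-specific HMG-box factors, 1 was higher and 0 were lower by limma, against 4.67% and 2.83% of all genes. At an unadjusted limma p under 0.05, 3 were higher and 0 lower, against 14.2% and 11.2% of all genes. The gene called higher by limma was Lef1, a TCF factor that carries Wnt signals, with 9.09, 9.15 and 8.70 scaled RPKM in Cdyl-KO and 7.30, 5.47 and 5.71 in Cdyl-Het (log2 change 0.49, SE 0.097, limma adjusted p = 0.0292). That call was lost when any library other than Cdyl-Het replicate 1 was left out (0.0681 to 0.105; 0.00799 to 0.105 over all alternatives). Tcf7, Tcf7l1 and Tcf7l2 had log2 changes of -0.06, 0.02 and 0.08, and Hbp1, Cic and Bbx had 0.15, 0.19 and 0.08. The values of Tcf7l1, Tcf7l2 and Bbx turned below 0 without scaling.

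Genes that act upstream of Sox9 went both ways. Of 19 measured here, 5 were higher in Cdyl-KO and 2 were lower, against 4.67% and 2.83% of all genes, while 12 missed the threshold. At an unadjusted limma p under 0.05, 9 were higher and 2 lower, against 14.2% and 11.2% of all genes. The median log2 change of the 19 genes was 0.13. Besides Sry, the higher genes included Gadd45g, a stress-response gene needed for timely Sry expression (log2 change 0.60, limma adjusted p = 0.00682), Emx2, a homeobox gene of the gonadal primordium (0.57, 0.0129), and Kdm3a, whose product removes methyl groups from H3K9 at Sry (0.45, 0.0139; 0.0532 without Cdyl-KO replicate 1, and 0.00988 to 0.0532 over all alternatives). The lower ones were Fgf9 and Ptgds. Fgf9, a growth factor that sustains Sox9, had 1.59, 1.29 and 2.22 scaled RPKM in Cdyl-KO, against 4.01, 6.56 and 5.35 in Cdyl-Het (log2 change -1.22, SE 0.18, limma adjusted p = 0.012). Ptgds encodes a prostaglandin D synthase and had a log2 change of -1.23. Fgfr2, which encodes the receptor of FGF9, did not pass the threshold (log2 change 0.22). If Cdyl-KO replicate 1 was dropped, 2 genes were higher, and 3 were if Cdyl-KO replicate 3 or Cdyl-Het replicate 2 was. Without Cdyl-Het replicate 3, 0 were lower, and Fgf9 had a limma adjusted p of 0.0592 (0.0092 to 0.0592 over all alternatives).

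Several genes listed here as opposing Sox9 were higher. Of 8 measured here, 5 were higher in Cdyl-KO and 0 were lower by limma, against 4.67% and 2.83% of all genes. At an unadjusted limma p under 0.05, 6 were higher and 0 lower, against 14.2% and 11.2% of all genes. The median log2 change of the 8 genes was 0.49. Wnt4, the ovary-promoting signal, had 34.9, 29.9 and 32.4 scaled RPKM in Cdyl-KO, against 23.2, 21.9 and 20.03 in Cdyl-Het (log2 change 0.56, limma adjusted p = 0.0104). Fst, an activin antagonist, Bmp2, a BMP ligand, and Nr0b1, a nuclear receptor that can repress Sox9 activation, had log2 changes of 0.84, 0.80 and 0.50, and each of these 4 genes was called under all 13 alternatives. Ctnnb1, the beta-catenin gene, had a log2 change of -0.01, and neither it nor Runx1 (0.16) and Nr2f2 (0.16), which encode transcription factors, passed the threshold. Nr2f2 also stands among the markers of interstitial progenitors below.

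Most genes known as targets of SOX9 in Sertoli cells were lower. Of 13 measured here, 11 were lower in Cdyl-KO and 0 were higher by limma, against 2.83% and 4.67% of all genes. At an unadjusted limma p under 0.05, 12 were lower and 0 higher, against 11.2% and 14.2% of all genes. The median log2 change of the 13 genes was -0.85. The 11 include Fgf9 and Ptgds, which were also counted among the upstream genes. Aard, a marker of early Sertoli cells, had 6.94, 5.67 and 8.49 scaled RPKM in Cdyl-KO, against 17.4, 25.8 and 26.1 in Cdyl-Het (log2 change -1.58, SE 0.18, limma adjusted p = 0.00676). Serpine2, a protease inhibitor, had 1.18, 1.46 and 1.31 in Cdyl-KO, against 2.88, 4.11 and 3.69 in Cdyl-Het (log2 change -0.97, SE 0.12, limma adjusted p = 0.00827). For both genes every Cdyl-KO library was below every Cdyl-Het library, and both were called in all alternatives that hold them. Lower genes numbered 7 if Cdyl-KO replicate 1 was dropped, 5 if Cdyl-Het replicate 2 was and 4 if Cdyl-Het replicate 3 was, the libraries on which the call of Sox9 also depended. These targets share their direction with Sox9 in the same 6 libraries, and the list was drawn up with earlier results known, so the count is not independent evidence.

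Some cartilage genes that SOX9 activates with SOX5 and SOX6 were also lower. Of 9 measured here, 4 were lower in Cdyl-KO and 0 were higher by limma, against 2.83% and 4.67% of all genes. At an unadjusted limma p under 0.05, 5 were lower and 0 higher, against 11.2% and 14.2% of all genes. The median log2 change of the 9 genes was -0.62. Col9a3, a collagen IX chain that also stands on the Sertoli list, had 0.548, 1.09 and 1.70 scaled RPKM in Cdyl-KO, against 5.38, 8.31 and 8.74 in Cdyl-Het (log2 change -2.02, SE 0.23, limma adjusted p = 0.00682). Col2a1, the collagen II gene and the classic SOX9 target, had 0.773, 1.75 and 1.35 in Cdyl-KO, against 3.62, 4.20 and 4.53 in Cdyl-Het (log2 change -1.18, SE 0.16, limma adjusted p = 0.0104). In neither gene did the groups overlap. Hapln1, a link protein of cartilage matrix, and Col9a2, another collagen IX chain, had log2 changes of -0.62 and -0.78. Acan, Col11a1 and Col11a2, also known cartilage targets, did not pass the threshold (log2 changes -0.11, 0.11 and -0.31). Without Cdyl-Het replicate 3, 2 of the 9 genes were lower and Col2a1 had a limma adjusted p of 0.0544 (0.0081 to 0.0544 over all alternatives). Col9a2 lost its call without Cdyl-KO replicate 1 or 2 and without Cdyl-Het replicate 2 or 3 (0.0700 to 0.0947; 0.0133 to 0.0947 over all).

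**Figure D4:**
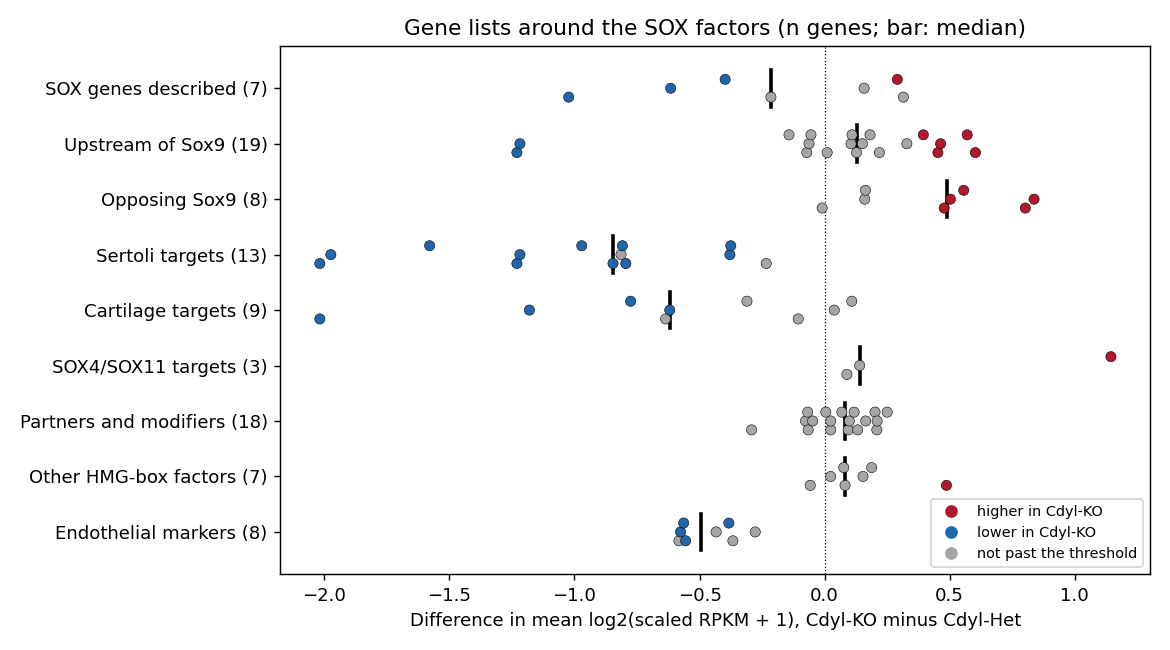
Difference in mean log2(scaled RPKM + 1), Cdyl-KO minus Cdyl-Het, for each measured gene of the lists around the SOX factors; each point is a gene, the number of genes is in parentheses, the bar is the list's median, and red and blue mark genes past the threshold. The Sertoli targets have a median of -0.85 and the genes listed as opposing Sox9 a median of 0.49.

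Of the listed targets of SOX4 and SOX11, 3 were measured here. By limma 1 was higher and 0 were lower, against 4.67% and 2.83% of all genes. The numbers were the same at an unadjusted limma p under 0.05, against 14.2% and 11.2%. The higher gene was Tubb3, a tubulin of neurons, with 3.24, 4.61 and 4.22 scaled RPKM in Cdyl-KO, against 1.33, 0.710 and 1.87 in Cdyl-Het (log2 change 1.15, SE 0.198, limma adjusted p = 0.0195). Its call was lost without Cdyl-KO replicate 2 (0.0624) or Cdyl-KO replicate 3 (0.0604; 0.0148 to 0.0624 over all alternatives). Map2 and Tead2 had log2 changes of 0.14 and 0.09. Among 18 proteins that bind or modify SOX factors, such as the coactivators Ep300 and Crebbp and the importin Kpnb1, 0 were called in either direction by limma, and 5 were higher and 1 was lower at an unadjusted p under 0.05, that is 6 of 18, where 25.4% of all genes passed. Their median log2 change was 0.08. In values left unscaled, 2 of them were called lower.

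The genes whose profile over the 6 libraries was most like that of Sox9 were Gas7, Mapk13, Etv5, Gstm6 and Tpd52l1. Likeness was the root mean square difference between log2 profiles, each centred on its own mean, over 6650 other genes with a mean of at least 5 scaled RPKM. Gas7, a growth-arrest-specific gene, was closest at 0.07, with 5.70, 4.89 and 6.81 scaled RPKM in Cdyl-KO against 10.6, 15.2 and 14.8 in Cdyl-Het. Mapk13, a p38 kinase gene, Etv5, an ETS factor gene induced by FGF signals, Gstm6, a glutathione transferase gene, and Tpd52l1 were at 0.11. In each of the 5 genes, as in Sox9, Cdyl-KO replicate 2 was the lowest library and Cdyl-Het replicate 1 the lowest of its group. The choice by likeness favours such a shared order, which is therefore not a separate result. Etv5 also stands among the Sertoli targets above. Among the SOX genes, the profile of Sox13 was nearest to that of Sox9 at 0.27, followed by Sox6 at 0.38 and Sox5 at 0.46, and the SOXC genes lay at 0.62 to 0.71. The measure includes the difference between the groups. This order is the same as that of the log2 changes above and is not a separate result.

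Markers of other cells moved in the same libraries. Of 8 endothelial markers measured here, 4 were lower and 0 higher by limma, against 2.83% and 4.67% of all genes. At an unadjusted limma p under 0.05, 7 were lower and 0 higher, against 11.2% and 14.2% of all genes. The summed level of the 8 markers was 21.7 to 23.95 scaled RPKM in Cdyl-KO and 33.1 to 36.3 in Cdyl-Het. Kdr, the endothelial VEGF receptor gene, was at 6.91 ± 0.458 in Cdyl-KO and 10.8 ± 0.639 in Cdyl-Het (SD, n = 3 each; log2 change -0.58, limma adjusted p = 0.00715). Of 6 mesonephric epithelium markers, 2 were higher and 0 lower by limma, against 4.67% and 2.83% of all genes. At an unadjusted limma p under 0.05 the counts were also 2 and 0, against 14.2% and 11.2% of all genes. The summed levels of the 6 markers were 27.5 to 30.1 in Cdyl-KO and 16.4 to 22.4 in Cdyl-Het. Most of that difference was Calb1, with means of 12.8 in Cdyl-KO and 5.22 in Cdyl-Het, and Pax8 was the other higher gene. The median log2 change of these 6 markers was -0.05, and Pax2, Cdh16 and Gata3 had negative values (-0.20, -0.12 and -0.19). Of 6 interstitial progenitor markers, 1 was higher and 0 lower by limma, against 4.67% and 2.83% of all genes. At an unadjusted limma p under 0.05 the counts were 3 and 1, against 14.2% and 11.2% of all genes. The sums of these 6 markers were 109.9 to 117 in Cdyl-KO and 102.8 to 106.6 in Cdyl-Het. Without scaling the sums of the 2 groups overlapped, so this separation rests on the scaling. The 3 measured markers of cartilage and limb mesenchyme, led by Col2a1, summed to 4.35 to 5.45 in Cdyl-KO and 7.91 to 8.52 in Cdyl-Het. By limma 1 of them was lower, against 2.83% of all genes. Of 10 listed markers of neural crest, nerve and neurons, 2 were measured here, Tubb3 and Stmn2, with 1 higher by limma, against 4.67% of all genes. These 2 genes summed to 4.31 to 6.39 in Cdyl-KO and 1.28 to 3.16 in Cdyl-Het. Stmn2, with a Cdyl-Het mean of 0.899 scaled RPKM, may owe its place in the tables to its Cdyl-KO level. This sum is therefore not evidence of a rise. The sum of 3 haemoglobin genes ranged from 32.8 to 92.96 in Cdyl-KO and from 31.2 to 171 in Cdyl-Het. Of these 3 genes 0 were called by limma, where 7.50% of all genes were. At an unadjusted limma p under 0.05, 1 was lower, against 11.2% of all genes. A single germ cell marker, Nanos3, was measured (0 called by either measure). Col2a1, Acan and Tubb3 stand both among these markers and among the SOX target lists above. The part of these cells in the changes of the SOX genes was not tested.

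**Figure D5:**
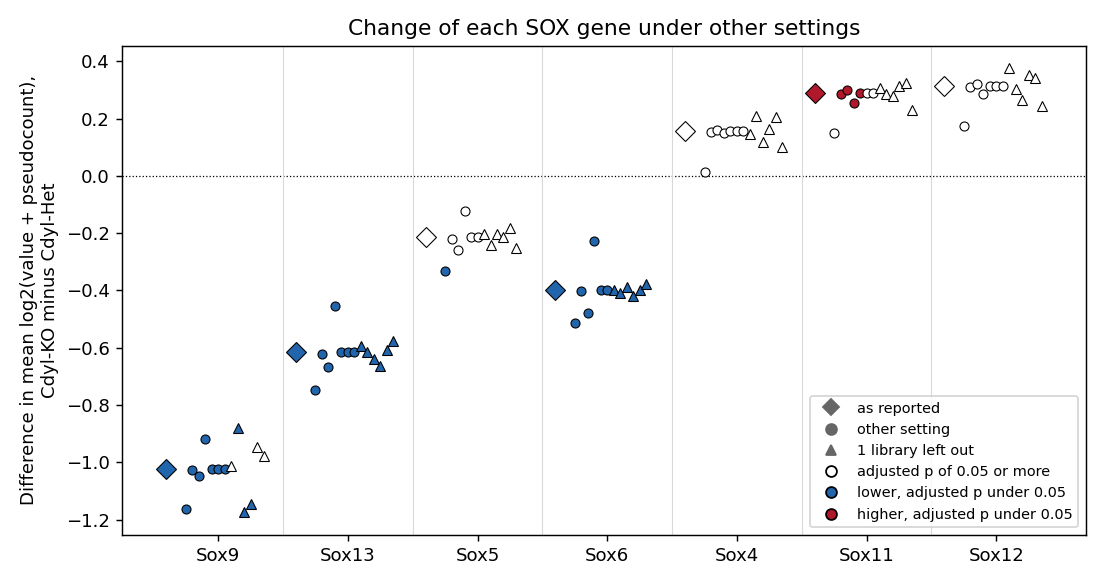
Difference in mean log2(value + pseudocount), Cdyl-KO minus Cdyl-Het, for each SOX gene as reported (diamond, left), under other settings (circles) and with 1 library left out (triangles); filled symbols passed an adjusted p of 0.05. The symbols of Sox13 and Sox6 are all filled, the triangles of Sox11 are all open, and no gene crosses 0.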

How the data were processed

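RNA of magnetically isolated gonadal somatic cells was profiled in 6 libraries prepared with a stranded total RNA kit for very small inputs, per the labels' protocols. Each library has 1 table from the authors, which pairs 11736 gene symbols with values. STAR, featureCounts 1.6.4 of Subread and mm10 are named in the submitters' processing notes; no source used here gives the annotation, the strand setting or the step from counts to values. These deposited values, taken as RPKM from their form, were not whole and summed to 191953 to 209917 per library. In short single-exon genes, value times length came in steps that made 87.2% to 88.9% of low values whole (tolerance 0.02, up to 100 reads); 63.9% to 71.0% of these whole counts were even, so some steps may count both reads of a fragment. With these steps, the 7 SOX genes rested on about 1432 to 13818 reads per library. If reads were independent, counting error alone is at most 2.64% for the lowest, and it is larger if both reads of a fragment were counted.

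Values were scaled by an unweighted trimmed mean of log ratios to Cdyl-Het replicate 1, with 30% of ratios and 5% of levels trimmed at each end. The log2 of scaled RPKM plus 1 was fitted by group with limma 3.58.1 in R 4.3.3 (empirical Bayes with trend), with Benjamini-Hochberg adjustment over all genes and a threshold of 0.05. Ratios were tested by exact permutation with scipy 1.17.1. The fit was tested on simulated data. Positions are from GENCODE M21 (GRCm38, which is mm10). Of the 8 genes, 7 had a RefSeq promoter entry, and Sox9 had none.

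The members and lists were chosen with earlier results of these data known. Named genes were the 8 members, other SOX and HMG-box genes, up to 4 called genes of each list with the smallest p, and the 5 genes most like Sox9; other genes named, such as Ptgds, Acan, Map2, Ctnnb1, Kdr, Fgfr2, Calb1 and other markers, were chosen as list members after their values were seen. Alternatives were other scaling, pseudocounts of 0.1 and 5, a minimum mean of 5, no trend, a replicate block and leaving out each library. Markers of gonadal somatic cells formed 1 list and those of other cells 7.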

Additional observations from a re-analysis of the deposited data

How the results depend on the processing

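The direction of each of the 7 SOX genes was kept under the 12 or 13 alternatives run for it, and of 89 such results 76 kept their side of the threshold. Without scaling, 1863 genes were called in place of 880 (16.4% of them higher, against 62.3%; 305 higher and 1558 lower, against 548 and 332); 0 SOX genes were then higher, Sox11 had a log2 change of 0.15 and Sox5 of -0.33 (now called), 2 partners of SOX proteins were lower, and Tcf7l1, Tcf7l2 and Bbx turned to -0.11, -0.047 and -0.048. Without a trend in the spread, 0 SOX genes were higher (Sox11 0.29). The replicate numbers did not pair the libraries (correlations of same-numbered deviations -0.052, -0.27 and -0.0527, and no Cdyl-KO library correlated best with its own number); with the replicate block 337 genes were called, 0 SOX genes were higher (Sox11 0.29), 3 upstream genes, 0 targets of SOX4 and SOX11 and 0 other HMG-box factors were higher. With a minimum mean of 5, where fewer genes are tested, 0 upstream genes and 7 Sertoli targets were lower and 0 targets of SOX4 and SOX11 were higher; Sox5 and Sox6 were then not tested.

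Leaving out each library gave 253 to 647 calls, 2 to 3 SOX genes changed, 2 to 3 lower and 0 higher, and log2 changes of -1.18 to -0.88 for Sox9, 0.23 to 0.32 for Sox11 and -0.66 to -0.58 for Sox13. It gave 2 to 6 upstream genes higher and 0 to 2 lower, 4 to 12 Sertoli and 2 to 5 cartilage targets lower, 0 to 1 targets of SOX4 and SOX11 higher, 0 to 1 partners lower and 0 to 1 other HMG-box factors higher. The cause of these shifts was not tested, beyond the smaller number of libraries. Of the 5 within-library ratios, none changed direction under another pseudocount or without scaling; the ratio of Sox9 to Sox8 and the genes most like Sox8 could not be computed. Median scaling and the other pseudocounts changed no call of a SOX gene. For the 31 other genes followed, 363 of 397 results kept direction and side of the threshold.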

Other observations

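The background of calls depended on the level and the span of genes, which differ among the SOX genes. When genes were divided by mean level into 4 groups of the same size, Sox9 and the SOXC genes lay in the top group, where the median log2 change was 0.07, 9.07% of genes were higher and 1.64% were lower. Counting up from the lowest group, Sox13 lies in the third (median 0.02) and Sox5 and Sox6 lie in the second (median -0.03, 3.82% lower). The SOXC genes have a single exon block, and of 989 such genes 4.85% were higher and 2.12% lower. Sox5 and Sox6 span over 500 kb, and of 96 such genes 6.25% were higher and 4.17% were lower. Sox13 spans 42.1 kb, and 4.07% of the 3240 genes of 40 to 200 kb were lower.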
